A study of Mus musculus with 24 samples.

Results

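Wnt ligands and RANKL (Tnfsf11) are the paracrine signals of the mammary epithelium, and their transcripts were followed here across HC11 cells in which the long noncoding RNA mPINC was knocked down or overexpressed. The set comprised 10 genes: the ligands Wnt4, Wnt5a, Wnt5b, Wnt6, Wnt7a, Wnt7b, Wnt10a and Wnt10b, the Wnt target Axin2, and Tnfsf11. Array probes that are not controls and whose RefSeq accession maps to one of these genes were taken, which gave 11 of the 55681 probes and 10 of the 20145 gene symbols on the array. Each gene had 1 such probe except Axin2, which had 2, and the brighter one by mean signal over the 24 arrays stood for that gene.

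HC11 is a mouse mammary epithelial line derived from the COMMA-D cells of a pregnant BALB/c mouse, and it begins to make milk proteins when given prolactin, hydrocortisone and insulin. Cells given the lactogenic hormones are written +LH, and cells not given prolactin and hydrocortisone -LH. In the study's methods insulin is in all media, so -LH cells are not without it. Growth medium there also holds EGF and calf serum, and the medium for hormone treatment holds stripped horse serum without EGF. Which medium the -LH array cells had is not stated. Every array was 1 Agilent 1-colour array of 1 sample. Transfection with 10 nM siRNA gave siNEG (a negative control), siPINC1.0/1.6 (a siRNA pair specific to mPINC1.0 and mPINC1.6, splice forms that hold the conserved region) and siPINC (a pair against all splice forms, those without the conserved region included), with n = 2 arrays each in -LH cells and n = 3 each in +LH cells. Both siRNA pairs contain the same siRNA beside a different partner. Lentiviral transduction gave LeGO-GFP (control), LeGO-1.0/1.6 (both mPINC forms overexpressed) and LeGO-DCR (an mPINC form lacking the most conserved regions), with n = 3 each, all +LH. The siRNA cells carried no virus and the lentiviral cells no siRNA, and the transduced cells were expanded and frozen before use, so arrays of a lentiviral group may share 1 transduction. The study's methods call the replicates biological, and the labels give no culture or passage for them.

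Wnt proteins are secreted lipid-modified glycoproteins that bind Frizzled receptors, with Lrp5 or Lrp6 as coreceptors for the branch that stabilizes beta-catenin. In that branch beta-catenin joins TCF/LEF factors in the nucleus and switches on target genes, of which Axin2 is the usual readout and itself a brake on the pathway. In the mammary gland Wnt4 and RANKL are made by hormone-sensing luminal cells in response to progesterone and act on neighbouring cells, Wnt10b marks the embryonic mammary line, Wnt5a restrains ductal growth, and Wnt7b and Wnt10a are epithelial ligands. RANKL acts through the receptor RANK (Tnfrsf11a) and NF-kappaB, and Tnfrsf11b encodes its decoy receptor osteoprotegerin.

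Promoter sequence from the RefSeq table (build GRCm38.p6) was at hand for 7 of the 10 genes, in 9 windows that run from 250 bases before to 50 bases after an annotated start. There was no window for Wnt5a, Wnt7b or Wnt10a. The 250 bases before the start are shown 5′ to 3′ for the 3 genes with the largest called changes under LeGO-1.0/1.6 that had a window, Wnt4 (chr4:137277385-137277634, plus strand), Wnt5b (the first of its 3 windows at chr6:119544348-119544597 and the second at chr6:119467212-119467461, both minus strand) and Wnt7a (chr6:91411354-91411603, minus strand). Capitals mark matches to letters searched on both strands for factors of the hormone and Wnt responses, and sequences in lower case throughout have none.
Wnt4: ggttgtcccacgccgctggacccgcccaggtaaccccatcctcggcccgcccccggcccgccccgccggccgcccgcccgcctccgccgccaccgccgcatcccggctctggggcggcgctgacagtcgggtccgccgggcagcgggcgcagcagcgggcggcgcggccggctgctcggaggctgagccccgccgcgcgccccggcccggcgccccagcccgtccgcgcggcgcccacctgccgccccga
Wnt5b, first window: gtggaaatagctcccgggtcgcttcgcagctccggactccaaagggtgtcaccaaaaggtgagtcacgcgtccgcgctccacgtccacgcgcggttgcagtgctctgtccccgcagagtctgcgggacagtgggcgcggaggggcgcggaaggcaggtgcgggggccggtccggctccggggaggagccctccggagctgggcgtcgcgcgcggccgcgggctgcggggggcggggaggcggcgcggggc
Wnt5b, second window: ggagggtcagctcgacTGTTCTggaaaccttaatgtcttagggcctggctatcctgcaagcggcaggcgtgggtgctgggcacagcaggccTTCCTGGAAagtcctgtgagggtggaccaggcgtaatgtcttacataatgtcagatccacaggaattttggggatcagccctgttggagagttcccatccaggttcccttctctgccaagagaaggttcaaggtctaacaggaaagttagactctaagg
Wnt7a: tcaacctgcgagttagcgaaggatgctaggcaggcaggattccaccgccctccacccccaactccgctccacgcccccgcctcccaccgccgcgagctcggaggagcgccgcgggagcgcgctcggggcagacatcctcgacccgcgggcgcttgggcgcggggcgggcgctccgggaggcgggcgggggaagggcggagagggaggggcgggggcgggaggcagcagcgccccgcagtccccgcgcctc
The letters searched were TTCNNNGAA (the STAT core bound by Stat5), AGAACA (a glucocorticoid receptor half-site) and CTTTGAA or CTTTGAT (the TCF/LEF core), and none of these patterns contains another. In the second Wnt5b window, TGTTCT is AGAACA read on the minus strand, and the other capitals are a TTCNNNGAA match. Of all 32851 windows of 300 bases in the table, 8.3% held TTCNNNGAA, 19% held AGAACA and 8.65% held a TCF/LEF core. The windows of Wnt4, the first start of Wnt5b, and Wnt7a had GC contents of 84.3%, 78% and 76% with 51, 47 and 42 CpG dinucleotides, against medians of 52.7% and 7 over all windows, whereas the second Wnt5b window had 53% and 4. Of the members not shown, Axin2 held 1 AGAACA, the third Wnt5b window 1 CTTTGAT, and Wnt6, Wnt10b and Tnfsf11 no match. Which Wnt5b start is used in HC11 cells cannot be read from the array probe.

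Signals are given as log2 of the quantile-normalized processed signal, and a probe counts as detected on an array where the scanner software marked it well above background. The number of probes well above background ran from 24021 to 35798 per array, the number of arrays limits the precision, and no spot was saturated. LeGO-1.0/1.6 replicate 1 stood apart, with the highest number of such probes, 644 outlier spots against at most 280 elsewhere, and 415 probes without a value. All -LH arrays, siNEG +LH replicate 1 and LeGO-GFP replicate 1 were on slide 1, the other +LH siRNA arrays on slide 2 and the other lentiviral arrays on slide 3. The mPINC probe, named by the study's tables, averaged 7.44 with siNEG, 6.33 with siPINC1.0/1.6 and 6.28 with siPINC without hormones, and 4.87, 5.06 and 4.37 with them. The lentiviral means were 13.44 (LeGO-1.0/1.6), 6.07 (LeGO-GFP) and 6.06 (LeGO-DCR). By these means it was lower in both knockdowns of -LH cells and higher in LeGO-1.0/1.6, but not lower in siPINC1.0/1.6 +LH, where 2 of 3 arrays of both siNEG and siPINC1.0/1.6 were above background, nor higher in LeGO-DCR, and the isoforms it covers are not given in the sources used here. The 4 epithelial markers (Epcam, Cdh1, Krt8, Krt18) and the 3 basal markers (Krt5, Krt14, Trp63) were detected on all 24 arrays, as were Pecam1, Kdr, Cd3e, Csf1r, Col3a1 and Pdgfra of the endothelial, leukocyte and fibroblast lists, and the progesterone receptor Pgr was detected on none.

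HC11 cells expressed only part of the set above background. Wnt4, Wnt5b, Wnt7b and Wnt10a were detected on 24 of 24 arrays and Wnt5a on 18. Wnt10b was detected on 6 arrays, Wnt7a on 3, Wnt6 on 2, Axin2 on 1 by its brighter probe (LeGO-1.0/1.6 replicate 1, the array that stood apart) and on 0 by the other, and Tnfsf11 on 0. Among the 11 Wnt ligands outside the set, Wnt1, Wnt9a and Wnt11 were detected on all 24 arrays, 6 on some, and Wnt3 and Wnt3a on none. The cells held transcripts for receiving a Wnt signal: 11 of 15 receptor genes (Fzd1 to Fzd4, Fzd6 to Fzd9, Lrp5, Lrp6 and Ryk) were detected on every array, as were Porcn and Wls, which acylate and carry Wnt proteins, and all 8 intracellular components tested, beta-catenin (Ctnnb1) among them. RANK (Tnfrsf11a) was detected on all 24 arrays, so the receptor was measured in these cells and its ligand was not. A signal below background does not show that a transcript is missing, and fewer expressing cells and less RNA per cell cannot be told apart in these bulk samples.

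**Figure D1:**
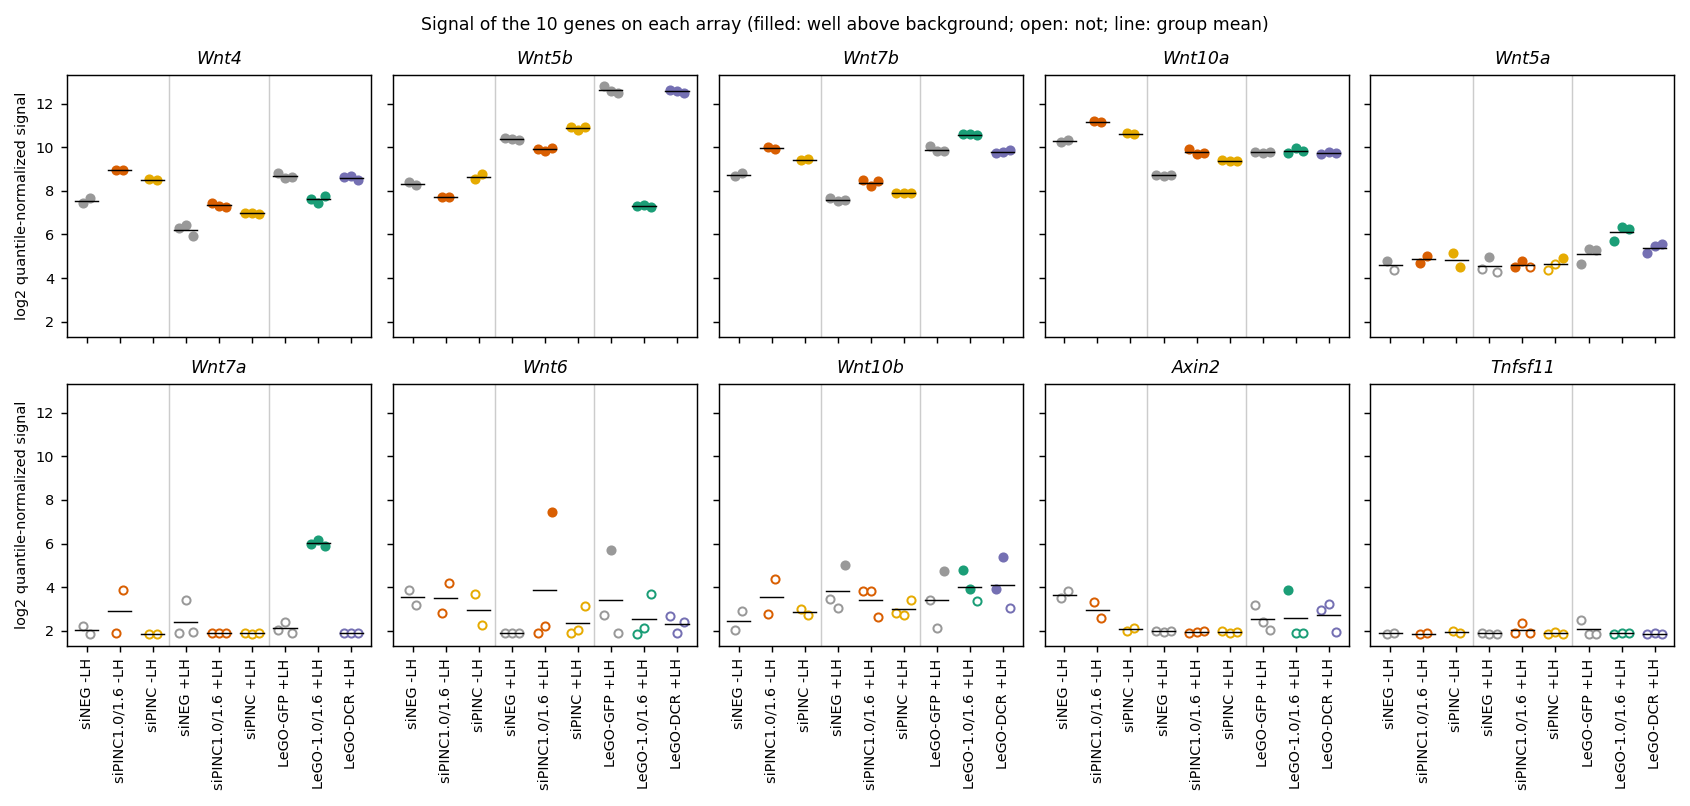
Log2 quantile-normalized signal of each of the 10 genes (vertical axes) on each of the 24 arrays, by group (horizontal axes); filled points were well above background, open points were not, and lines are group means. Wnt4, Wnt5b, Wnt7b and Wnt10a are filled on every array, Wnt7a is filled only on the 3 LeGO-1.0/1.6 arrays, and Tnfsf11 is open on all 24.

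The ligand that moved most was Wnt5b, a ligand of the beta-catenin-independent branch. Without hormones its signals were 8.39 and 8.28 with siNEG, 7.74 and 7.72 with siPINC1.0/1.6, and 8.53 and 8.75 with siPINC. In +LH cells they were 10.42, 10.39 and 10.33 with siNEG, 9.94, 9.83 and 9.97 with siPINC1.0/1.6, and 10.93, 10.79 and 10.94 with siPINC. The lentiviral arrays gave 12.79, 12.56 and 12.5 for LeGO-GFP, 7.29, 7.36 and 7.25 for LeGO-1.0/1.6, and 12.61, 12.58 and 12.49 for LeGO-DCR. The 3 LeGO-1.0/1.6 arrays were the lowest of all 24, below the -LH cells, and LeGO-GFP and LeGO-DCR overlapped at the top. The groups ordered from high to low as LeGO-GFP, LeGO-DCR, siPINC +LH, siNEG +LH, siPINC1.0/1.6 +LH, siPINC -LH, siNEG -LH, siPINC1.0/1.6 -LH and LeGO-1.0/1.6, and the overlap of the first 2 was the only one between neighbours. Levels of the siRNA and lentiviral groups come from different experiments on different slides, and their differences were not tested.

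Wnt4, which is needed for side branching and alveolar growth in pregnancy, ran the other way with hormones. Its signals were 7.43 and 7.68 in siNEG -LH and 6.3, 6.42 and 5.92 in siNEG +LH. With siPINC1.0/1.6 they were 8.96 and 8.94 in -LH and 7.42, 7.31 and 7.28 in +LH cells, and with siPINC 8.55 and 8.48, and 7, 6.97 and 6.96. Every knockdown array was above every siNEG array of the same hormone state. LeGO-GFP gave 8.84, 8.6 and 8.63, LeGO-DCR 8.63, 8.67 and 8.52, and LeGO-1.0/1.6 only 7.63, 7.46 and 7.75, with no overlap between the last and the other two. From high to low by group mean, siPINC1.0/1.6 -LH came first, then LeGO-GFP, LeGO-DCR and siPINC -LH, each overlapping the next, then LeGO-1.0/1.6 and siNEG -LH, which overlapped, and siPINC1.0/1.6 +LH, siPINC +LH and siNEG +LH, which did not.

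Wnt7b without hormones was 8.68 and 8.8 with siNEG, 9.99 and 9.91 with siPINC1.0/1.6, and 9.43 and 9.44 with siPINC. In +LH cells it was 7.65, 7.54 and 7.57 with siNEG, 8.49, 8.22 and 8.43 with siPINC1.0/1.6, and 7.92, 7.89 and 7.9 with siPINC. LeGO-GFP gave 10.05, 9.81 and 9.81, LeGO-DCR 9.73, 9.77 and 9.88, and LeGO-1.0/1.6 10.59, 10.59 and 10.56. The LeGO-1.0/1.6 arrays were thus the highest of all 24 for Wnt7b, while siNEG +LH was the lowest group.

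Wnt10a without hormones was 10.23 and 10.31 with siNEG, 11.19 and 11.17 with siPINC1.0/1.6, and 10.64 and 10.61 with siPINC. In +LH cells it was 8.72, 8.7 and 8.73 with siNEG, 9.93, 9.68 and 9.75 with siPINC1.0/1.6, and 9.41, 9.35 and 9.38 with siPINC. The lentiviral arrays all fell between 9.71 and 9.98, and their 3 groups overlapped. In the siRNA arrays the 6 groups of Wnt10a did not overlap.

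Wnt5a, which also signals without beta-catenin, was dimmer: its siRNA arrays ran from 4.27 to 5.13 and all 6 siRNA groups overlapped at least one other. LeGO-GFP gave 4.66, 5.35 and 5.3, LeGO-DCR 5.13, 5.48 and 5.58, and LeGO-1.0/1.6 5.69, 6.36 and 6.24. The lowest LeGO-1.0/1.6 array was replicate 1, which stood apart, and it still lay above all LeGO-GFP and LeGO-DCR arrays.

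Wnt7a, the ligand that patterns the limb and the female reproductive tract, was detected on the 3 LeGO-1.0/1.6 arrays at 6, 6.14 and 5.9. The LeGO-GFP arrays gave 2.04, 2.38 and 1.9 and each LeGO-DCR array 1.88, and on every array outside LeGO-1.0/1.6 it lay between 1.86 and 3.87, not well above background. Wnt6 was detected on 1 siPINC1.0/1.6 +LH array at 7.45, against 1.89 and 2.21 on the other 2 arrays of that group, and on 1 LeGO-GFP array at 5.68, against 2.7 and 1.89. No group thus had Wnt6 on more than 1 array. Wnt10b was between 2.02 and 5.36, and the 6 arrays that detected it were 1 of siNEG +LH, 1 of LeGO-GFP, 2 of LeGO-1.0/1.6 and 2 of LeGO-DCR. Tnfsf11 lay between 1.86 and 2.49 on all 24 arrays, none of them detected.

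The first comparison set +LH against -LH control cells, between which the medium may differ as well as the hormones. In siNEG cells Wnt10a, Wnt4 and Wnt7b fell and Wnt5b rose when hormones were added. Wnt10a was 2.93-fold lower (log2 difference -1.55, SE 0.0691, adjusted p = 3.83e-08), Wnt4 2.54-fold lower (-1.34, SE 0.129, adjusted p = 1.42e-05) and Wnt7b 2.22-fold lower (-1.15, SE 0.0791, adjusted p = 1.06e-06), while Wnt5b was 4.12-fold higher (2.04, SE 0.082, adjusted p = 1.81e-08). Each p is from limma on all probes with Benjamini-Hochberg adjustment, and called means an adjusted p under 0.05. The siNEG +LH and -LH arrays did not overlap for any of these 4 genes. They also did not overlap for Axin2 and Wnt6, detected in neither group, and Wnt10b, detected on 1 siNEG +LH array. The share of all genes separated in this way was not counted. Within slide 1, where 1 siNEG +LH array can be set beside the 2 siNEG -LH arrays, the log2 differences were -1.55 for Wnt10a, -1.26 for Wnt4, -1.09 for Wnt7b and 2.08 for Wnt5b. With Axin2 the count of called members was 5 of 10 (1 higher, 4 lower), against 40.8% of all genes, so the share was near that background. Axin2 was 3.49 and 3.81 without and 1.96, 2 and 1.98 with hormones, and since neither group was well above background on any array, no fold is given. The median log2 difference of the 10 members was -0.59, against 0.02 over all genes.

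Genes around these ligands were called in both directions with hormones, beside the 40.8% of all genes called. Of the 15 receptor genes 6 rose and 4 fell (Ror1, among the 6, was detected on 1 siNEG +LH array), with the largest rises in Fzd4 (8.23-fold, adjusted p = 5.34e-09) and Fzd9 (2.88-fold, adjusted p = 4.14e-08). Of the 8 intracellular components 5 rose and 0 fell, Ctnnb1 by 2.04-fold (adjusted p = 1.06e-07) and Tcf7l2, a TCF factor, by 2.51-fold (adjusted p = 7.14e-06). Of the 9 feedback and target genes, 4 fell and 1 rose: Ccnd1, which encodes cyclin D1, was 4.14-fold lower (adjusted p = 6.76e-10), Cd44 4.22-fold lower (adjusted p = 1.27e-06), Nkd2, an inhibitor of Dishevelled, 2.94-fold lower (adjusted p = 1.41e-06) and Tcf7, detected on 1 of 3 siNEG +LH arrays and therefore given without a fold, was called lower (adjusted p = 0.00567), whereas Rnf43, a ligase that removes Frizzled from the membrane, was 4.79-fold higher (adjusted p = 1.44e-09). The secreted inhibitors split as well, with Wif1 6.57-fold higher (adjusted p = 2.79e-07) and Sfrp1 2.57-fold lower (adjusted p = 1.38e-07). Of the list of 10 inhibitors 2 were called higher and 2 lower, Dkk3 without being detected in either group, of 7 R-spondins and Lgr receptors 1 rose and 3 fell, and of the 11 other ligands Wnt9a fell, by 2.02-fold (adjusted p = 0.0114). Porcn was 2.24-fold lower (adjusted p = 1.21e-06) and Wls 2.03-fold higher (adjusted p = 5.07e-08). In the RANK pathway 2 of 8 genes rose and 2 fell, with Id2 2.95-fold higher (adjusted p = 1.07e-07) and Relb 1.33-fold lower (adjusted p = 0.000977).

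The hormone response came with a shift in lineage markers: 3 of 3 basal markers fell, 3 of 4 epithelial markers rose, and Ly6a fell in the mature luminal list, where Foxa1 was called lower without being detected in either group. The summed level of the basal list (log2 of the markers' added signals) was between 17.29 and 17.33 in siNEG -LH and between 15.35 and 15.68 in siNEG +LH. That of the mature luminal list went from between 11.69 and 11.9 to between 9.44 and 9.57. Esr1, Foxa1 and Pgr were detected in neither group, so this sum follows Ly6a alone (means 11.78 and 9.46), as it does below. Of 4 fibroblast markers Col3a1 and Pdgfra rose and Col1a1 fell (between 9.72 and 9.83, then between 10.36 and 10.47). Milk genes (Csn2, Csn3, Wap, Ltf) went from between 7.6 and 7.88 to between 11.31 and 11.54. Whether these shifts have a part in the changes of the Wnt ligands was not tested.

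In -LH cells, knockdown of mPINC1.0 and mPINC1.6 was compared with the siNEG -LH arrays that the hormone comparison also used, and 3 ligands rose. With siPINC1.0/1.6 in -LH cells Wnt4 was 2.63-fold higher than with siNEG (log2 1.39, SE 0.104, adjusted p = 0.0297), Wnt7b 2.31-fold (1.21, SE 0.0711, adjusted p = 0.028) and Wnt10a 1.88-fold (0.91, SE 0.0584, adjusted p = 0.0287). Wnt5b differed by -0.6 (SE 0.102) and was not called (adjusted p = 0.0716), although its 2 siPINC1.0/1.6 arrays lay below both siNEG arrays, and it was called lower under normexp, the filter on dim probes and the slide term. The calls were 3 of 10 members, all higher, against 5.26% of all genes, and the members' median difference was 0.56 on the log2 scale against 0 over all genes. With n = 2, leaving out any 1 of the 6 arrays of the fit ended all 3 calls (adjusted p up to 0.108), while the log2 differences stayed between 0.87 and 1.52. The study's own tables list Wnt4, Wnt5b, Wnt7b and Wnt10a among probes selected on these arrays, so these rises are not independent evidence.

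With siPINC in -LH cells the differences from siNEG were 0.96 for Wnt4 (adjusted p = 0.17), 0.7 for Wnt7b (adjusted p = 0.165), 0.36 for Wnt10a (adjusted p = 0.255) and 0.3 for Wnt5b (adjusted p = 0.488) on the log2 scale, and limma called 0 of 10 members and 0% of all genes. At an unadjusted p under 0.05 limma counted 5 members (these 4 and Axin2) and the methods' t-test 4, of which 0 remained after adjustment. Both siPINC arrays lay above both siNEG arrays for Wnt4, Wnt7b, Wnt10a and Wnt5b. The groups also did not overlap for Axin2 (lower) and Tnfsf11 (higher), which were detected in neither. The share of all genes separated in this way was not counted. The 2 -LH knockdowns share their siNEG arrays and an siRNA, so like signs in both are not independent.

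Other genes of the path were called in both directions with siPINC1.0/1.6 in -LH cells, beside 5.26% of all genes. Of the receptors 1 rose (Ryk, 1.37-fold, adjusted p = 0.0464) and 1 fell (Fzd9, 2.6-fold, adjusted p = 0.0248). Lgr6 fell 2.67-fold (adjusted p = 0.0366), Sfrp1 1.71-fold (adjusted p = 0.0369) and Rnf43 1.64-fold (adjusted p = 0.0354). None of the 8 intracellular components or the 11 other ligands was called. In the RANK list Nfkb2 and Relb, subunits of noncanonical NF-kappaB, were 1.6-fold (adjusted p = 0.0297) and 1.73-fold higher (adjusted p = 0.0365), and Id2 was 1.52-fold lower (adjusted p = 0.0462). Of the fibroblast markers 3 of 4 were called lower and Thy1, not detected in either group, higher, the summed level of that list being between 9.72 and 9.83 in siNEG and between 8.2 and 8.39 in siPINC1.0/1.6. Its part in the ligand changes was not tested.

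In hormone-treated cells Wnt10a, Wnt4 and Wnt7b were again higher with siPINC1.0/1.6, and Wnt5b was lower. The mPINC probe itself was not lower here (mean 5.06, against 4.87 with siNEG). Relative to siNEG +LH, Wnt10a was 2.1-fold higher (log2 1.07, SE 0.0676, adjusted p = 0.000614), Wnt4 2.18-fold higher (1.13, SE 0.125, adjusted p = 0.0047), Wnt7b 1.73-fold higher (0.79, SE 0.0751, adjusted p = 0.00246) and Wnt5b 1.38-fold lower (-0.47, SE 0.064, adjusted p = 0.0109). The groups did not overlap for any of the 4, nor for Wnt7a, which was detected in neither group. The share of all genes so separated was not counted. The Wnt5b call was lost without siNEG replicate 2 (adjusted p = 0.0505). Within slide 2, which held all 3 siPINC1.0/1.6 arrays and 2 of siNEG, the differences were 1.07, 1.17, 0.82 and -0.45. Called were 4 of 10 members (3 higher, 1 lower) against 6.41% of all genes, with a median of 0.1 against -0.01. This comparison and the hormone response share the siNEG +LH arrays, so their values are given only side by side, hormone first: -1.55 and 1.07 for Wnt10a, -1.34 and 1.13 for Wnt4, -1.15 and 0.79 for Wnt7b, and 2.04 and -0.47 for Wnt5b.

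siPINC, which also targets the splice forms without the conserved region, gave 2 calls in +LH cells, both higher, and the difference of Wnt5b had the opposite sign from that with siPINC1.0/1.6. Relative to siNEG +LH, Wnt10a was 1.58-fold higher (log2 0.66, SE 0.0676, adjusted p = 0.0152) and Wnt5b 1.42-fold higher (0.51, SE 0.064, adjusted p = 0.0275), 2 of 10 members against 1.36% of all genes. Wnt4 differed by 0.77 (SE 0.125, adjusted p = 0.0595) and Wnt7b by 0.32 (SE 0.0751, adjusted p = 0.177), neither of them called. All 3 siPINC arrays were above all 3 siNEG arrays for both, and the share of all genes so separated was not counted. Within slide 2 the differences were 0.66 for Wnt10a, 0.53 for Wnt5b, 0.81 for Wnt4 and 0.35 for Wnt7b. Both calls were lost without siNEG replicate 1 or 2 or siPINC replicate 1 or 3, which left 0 of 10 called, and the Wnt5b call also without siNEG replicate 3 or siPINC1.0/1.6 replicate 1 or 3 (adjusted p up to 0.116 for Wnt5b and 0.0721 for Wnt10a). A direct test of the 2 siRNA pairs in +LH cells, chosen after these values were seen, uses the siNEG arrays for the spread only. Wnt5b was 1.97-fold lower with siPINC1.0/1.6 than with siPINC (log2 -0.98, SE 0.064, adjusted p = 0.00546) and Wnt7b 1.39-fold higher (0.48, SE 0.0751, adjusted p = 0.0456), 2 of 10 members against 1.79% of all genes. Wnt10a (0.4, SE 0.0676, adjusted p = 0.0553) and Wnt4 (0.36, SE 0.125, adjusted p = 0.376; 95% interval 0.07 to 0.65) were not called between the pairs. The Wnt5b call held with each of the 9 arrays left out (adjusted p at most 0.0235) but was lost under the replicate block (adjusted p = 0.0511) and the methods' t-test, and the Wnt7b call was lost with 8 of the 9 (all but siPINC1.0/1.6 replicate 2, adjusted p up to 0.155).

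**Figure D2:**
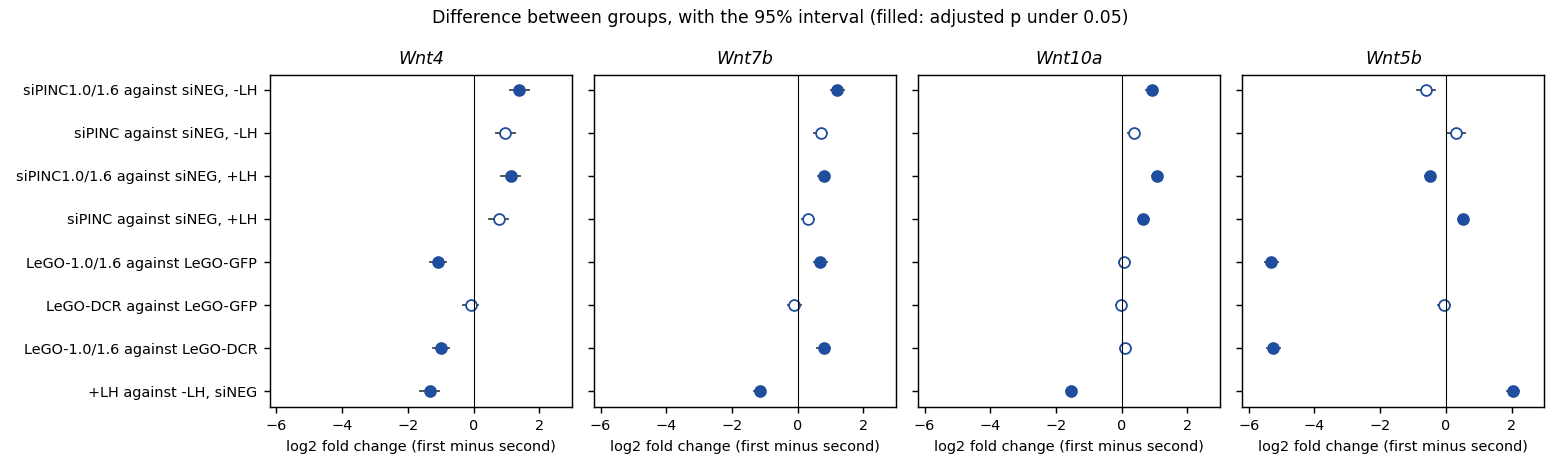
Log2 difference between groups (horizontal axes) for the 4 ligands detected on all arrays, 1 row per comparison, with 95% intervals from limma; filled points have an adjusted p under 0.05. Wnt4, Wnt7b and Wnt10a lie right of 0 in all 4 knockdown rows and left of 0 in the hormone row, and Wnt5b lies at -5.32 and -5.26 in the rows of LeGO-1.0/1.6.

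Other genes of the path were called too in the +LH knockdowns, beside 6.41% of all genes with siPINC1.0/1.6 and 1.36% with siPINC. With siPINC1.0/1.6, 3 of 15 receptors fell (Fzd4 1.42-fold, adjusted p = 0.0434; Fzd9 1.45-fold, adjusted p = 0.00507; Lrp6 1.43-fold, adjusted p = 0.0162) and none rose. Ccnd1 was 1.83-fold higher (adjusted p = 0.000309), Nkd2 1.36-fold higher (adjusted p = 0.0212) and Rnf43 1.66-fold lower (adjusted p = 0.00112), and Sfrp1 (1.29-fold, adjusted p = 0.027) and Lgr6 (1.41-fold, adjusted p = 0.041) were higher. With siPINC, Fzd9 was 1.47-fold lower (adjusted p = 0.0184), Lgr6 1.72-fold lower (adjusted p = 0.0266) and Ccnd1 1.42-fold higher (adjusted p = 0.0108). The decoy receptor Tnfrsf11b was 1.46-fold higher with siPINC1.0/1.6 (adjusted p = 0.00957) and 1.4-fold higher with siPINC (adjusted p = 0.0429), against the same siNEG arrays, and Relb was 1.25-fold higher with siPINC1.0/1.6 (adjusted p = 0.0379). None of the 11 other ligands and none of the 8 intracellular components was called in either knockdown. Beside these, 2 of 3 basal markers rose with siPINC1.0/1.6 (summed level between 16 and 16.11, against between 15.35 and 15.68 in siNEG), Krt18 fell among the 4 epithelial markers (summed level between 15.43 and 15.56, against between 15.74 and 15.83), and Ly6a rose 3.32-fold (adjusted p = 0.000436) in the mature luminal list (between 11.07 and 11.32, against between 9.44 and 9.57). Of the fibroblast markers Col3a1 rose and Pdgfra fell (between 11.01 and 11.32, against between 10.36 and 10.47). Also with siPINC1.0/1.6, Csn2 was called lower and Ltf higher among the milk genes, and Stat5a, Stat5b and Elf5 were called lower. The part of these lists in the ligand changes was not tested.

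Whether a knockdown acted differently with and without hormones was tested by an interaction term. For siPINC1.0/1.6, 0 of 10 members were called by limma against 6.12% of all genes, and 2 (Wnt7b and Axin2) had an unadjusted p under 0.05. The estimates were -0.42 for Wnt7b (SE 0.112, adjusted p = 0.0888), -0.27 for Wnt4 (SE 0.183, adjusted p = 0.651), 0.16 for Wnt10a (SE 0.0978, adjusted p = 0.607) and 0.14 for Wnt5b (SE 0.116, adjusted p = 0.757), each being the difference from siNEG in +LH cells minus that in -LH cells. For siPINC the 4 estimates lay between -0.38 and 0.31 with adjusted p of at least 0.301. Axin2 was the 1 called member of that interaction, against 0.869% of all genes, and its signals were not well above background in any of the 4 groups.

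Overexpression of mPINC1.0 and mPINC1.6 lowered Wnt5b and Wnt4 and raised Wnt7a, Wnt7b and Wnt5a. Relative to LeGO-GFP, Wnt5b was 39.8-fold lower in LeGO-1.0/1.6 cells (log2 -5.32, SE 0.0843, adjusted p = 5.8e-08) and Wnt4 2.11-fold lower (-1.07, SE 0.0988, adjusted p = 0.000118). Wnt7a was at least 3.95-fold higher (adjusted p = 7.22e-07), a bound set by the lowest signals called well above background on the LeGO-GFP arrays, Wnt7b 1.61-fold higher (0.69, SE 0.079, adjusted p = 0.00038) and Wnt5a 1.99-fold higher (0.99, SE 0.252, adjusted p = 0.0208). Wnt10a did not pass the test (0.08, SE 0.0702, adjusted p = 0.477). The counts were 3 higher and 2 lower of 10, against 45.7% of all genes called, so the share of members called was near the background. The Wnt5b difference was the largest of the members, beside a median absolute log2 difference of 0.39 over all genes. Wif1 and Elf5, given below, changed by about as much, and how many other genes did was not counted. Members' values had a median of 0.05 against -0.01 over all genes. Within slide 3 the differences were -5.23 for Wnt5b, -1 for Wnt4, 3.87 for Wnt7a, 0.77 for Wnt7b and 0.77 for Wnt5a. Without LeGO-1.0/1.6 replicate 1 the 5 calls held, at -5.31 for Wnt5b, -1.08 for Wnt4, 3.91 for Wnt7a, 0.68 for Wnt7b and 1.2 for Wnt5a, and the Wnt5a call was lost without replicate 2 or 3 of that group (adjusted p up to 0.0706).

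With the form of mPINC without its most conserved regions no member was called. Relative to LeGO-GFP, limma called 0 of 10 members in LeGO-DCR, against 0.0397% of all genes, and limma and the methods' t-test each found 0 members at an unadjusted p under 0.05. The log2 differences were -0.05 for Wnt5b (95% interval -0.25 to 0.14), -0.08 for Wnt4 (-0.31 to 0.15), -0.1 for Wnt7b (-0.29 to 0.09) and -0.02 for Wnt10a (-0.19 to 0.14). Intervals were wider for Wnt5a (-0.3 to 0.89), Wnt10b (-1.25 to 2.61) and Wnt6 (-3.41 to 1.2), so changes in these are not excluded. Wnt7a, Axin2 and Tnfsf11 were detected in neither group. Tested directly, LeGO-1.0/1.6 against LeGO-DCR gave Wnt5b 38.4-fold lower (adjusted p = 6.01e-08), Wnt4 1.99-fold lower (adjusted p = 0.000179), Wnt7a at least 4.86-fold higher (adjusted p = 5.76e-07) and Wnt7b 1.73-fold higher (adjusted p = 0.000185), 4 of 10 members against 45.4% of all genes. Wnt5a was not called there (0.7, SE 0.252, adjusted p = 0.084), but was called without LeGO-1.0/1.6 replicate 1, when 5 members passed, and under 5 of the other alternatives. The 2 comparisons share the LeGO-1.0/1.6 arrays.

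Genes around the ligands were called in both directions in LeGO-1.0/1.6 against LeGO-GFP, beside the 45.7% of all genes called. Among the 11 other ligands Wnt9a was 5.2-fold higher (adjusted p = 4.39e-06) and Wnt11 1.44-fold higher (adjusted p = 0.00453), Porcn was 2.23-fold higher (adjusted p = 1.16e-05) and Wls 1.72-fold lower (adjusted p = 5.45e-05). Of 15 receptors 7 fell and 3 rose, Fzd9 falling 9.74-fold (adjusted p = 2.49e-06) and Fzd1 3.73-fold (adjusted p = 1.22e-06). The R-spondin Rspo3, which boosts Wnt signalling through Lgr receptors, was 8.13-fold higher (adjusted p = 4.47e-06) and Rspo1, undetected in LeGO-GFP, at least 4.02-fold higher (adjusted p = 0.00059), while Lgr4 was 1.7-fold lower (adjusted p = 9e-04). Among secreted inhibitors Wif1 was 39.3-fold lower (adjusted p = 2.23e-07), Sfrp1 4.7-fold lower (adjusted p = 7.49e-06) and Sfrp5, undetected in LeGO-1.0/1.6, at least 3.2-fold lower (adjusted p = 0.0119), and Notum was 1.25-fold higher (adjusted p = 0.0431). Of 9 feedback and target genes 4 rose and 1 fell, Cd44 6.32-fold higher (adjusted p = 4.39e-06), Ccnd1 2.58-fold higher (adjusted p = 1.04e-05) and Nkd2 13.3-fold lower (adjusted p = 2.34e-07). Of 8 intracellular components 4 fell and 1 rose, with Ctnnb1 2.06-fold lower (adjusted p = 2.57e-06), Tcf7l1 6.31-fold lower (adjusted p = 0.000172) and Tcf7l2 3.64-fold lower (adjusted p = 1.94e-05).

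**Figure D3:**
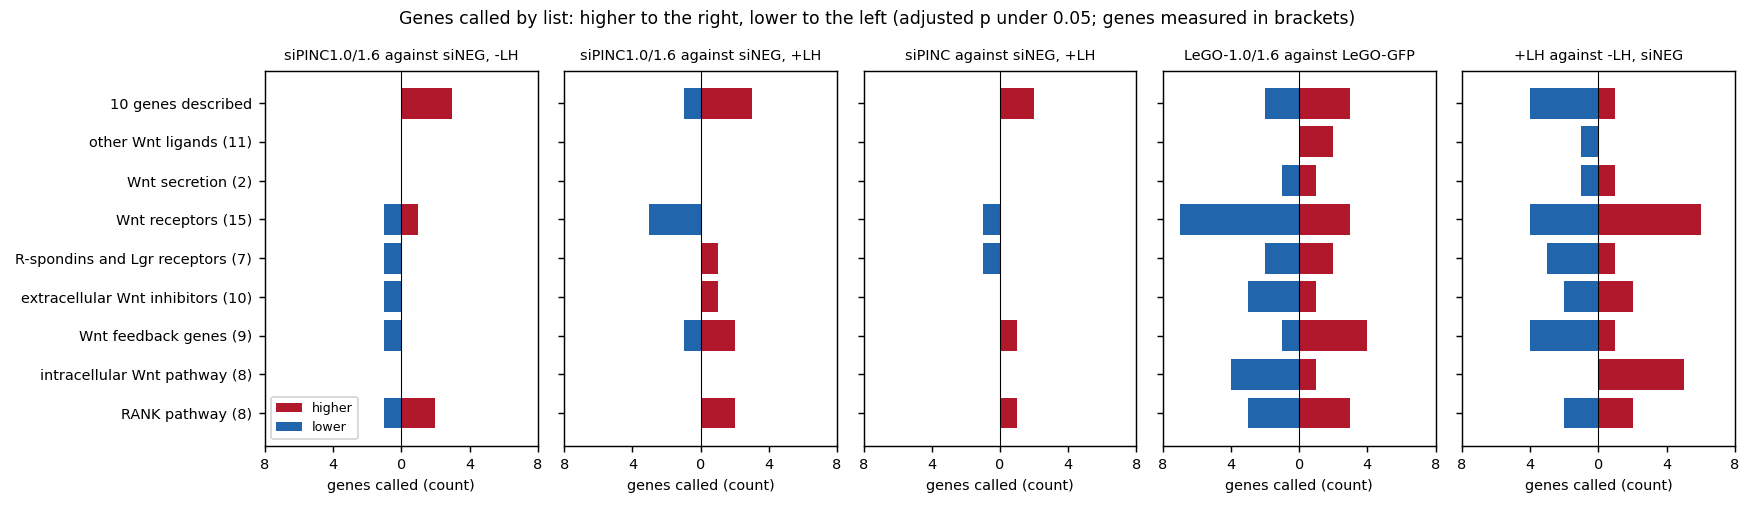
Number of genes called by limma at an adjusted p under 0.05 in each list (vertical axis, genes measured in brackets) for 5 comparisons; bars to the right count genes that were higher and bars to the left genes that were lower. The intracellular list has 5 higher with hormones and 4 lower in LeGO-1.0/1.6, and no bar in the 3 knockdown panels. Of all genes 5.26%, 6.41%, 1.36%, 45.7% and 40.8% were called, in panel order.

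On the RANK side of LeGO-1.0/1.6, 3 of 8 genes rose and 3 fell. These counts and those of the markers below stand beside the 45.7% of all genes called. Nfkb2 was 2.52-fold (adjusted p = 2.39e-05) and Relb 2.13-fold higher (adjusted p = 9.82e-05), Id2 5.97-fold lower (adjusted p = 2.04e-07) and Tnfrsf11b 1.44-fold lower (adjusted p = 0.000851), while RANK itself (Tnfrsf11a) was not called in any of the comparisons and Tnfsf11 was not detected. Among the hormone receptors and mediators Elf5, a factor of luminal progenitors and alveolar cells, was 44.2-fold lower (adjusted p = 2.77e-07), Prlr 1.87-fold lower (adjusted p = 8.01e-06) and Areg, an EGF-family ligand, 30.9-fold higher (adjusted p = 2.12e-07). Elf5 was also called lower with siPINC1.0/1.6 in both -LH and +LH cells, and higher with siPINC in +LH cells. The basal markers fell here too, 3 of 3, from a summed level of between 15.99 and 16.08 in LeGO-GFP to between 14 and 14.06, 3 of 4 epithelial markers fell (from between 15.14 and 15.15 to between 14.92 and 15.03), Ly6a fell while Foxa1 and Esr1, undetected in LeGO-GFP, rose in the mature luminal list (from between 13.18 and 13.24 to between 11.04 and 11.11), and 3 of 4 milk genes fell (from between 14.88 and 14.97 to between 10.6 and 10.64). The mature luminal sum followed Ly6a (mean 13.22, then 11.02) although Foxa1 and Esr1 rose. Of the fibroblast markers Col3a1 fell and Pdgfra rose (from between 11.86 and 11.94 to between 8.91 and 9.07). Their part in the changes of the ligands was not tested.

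A second probe is named Wnt4 only by the study's tables and carries an Ensembl transcript accession, so it lies outside the rule. It moved in the same direction in all comparisons called for Wnt4, but by different amounts. The study lists this probe among those changed by knockdown in -LH cells, so its rise there is not independent evidence. In LeGO-1.0/1.6 against LeGO-GFP its difference was -3.1 (SE 0.0694, adjusted p = 1.83e-07) where the RefSeq probe gave -1.07, and with hormones in siNEG cells it was -0.48 (SE 0.114, adjusted p = 0.00869) where the RefSeq probe gave -1.34. With siPINC1.0/1.6 it was 1.25 in -LH cells (adjusted p = 0.0291) and 0.7 in +LH cells (adjusted p = 0.0192). The LeGO-1.0/1.6 arrays, at 8.31, 8.53 and 8.41, were the lowest of this probe, whereas on the RefSeq probe that place was taken by siNEG +LH. Which Wnt4 transcripts each probe covers was not examined here.

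**Figure D4:**
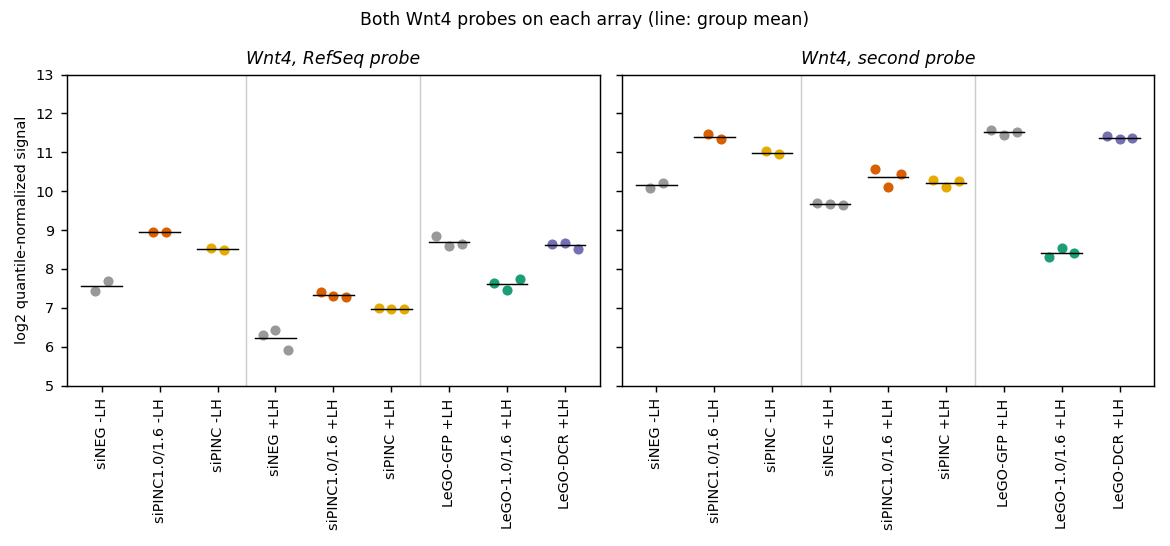
Log2 quantile-normalized signal (vertical axes) of both Wnt4 probes on each array by group; all points were well above background and lines are group means. LeGO-1.0/1.6 lies between 8.31 and 8.53 as the lowest group on the second probe, and siNEG +LH, between 5.92 and 6.42, is lowest on the RefSeq probe.

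Over the 24 arrays the 4 ligands that responded to knockdown did not share 1 profile. Pearson correlations between probes, which share arrays and group structure and are given as descriptions, were 0.78 for Wnt4 and Wnt7b, 0.75 for Wnt4 and Wnt10a and 0.58 for Wnt7b and Wnt10a, while Wnt5b had 0.11 with Wnt4, -0.19 with Wnt7b and -0.47 with Wnt10a. Among the 13807 other genes well above background on every array of some group, the profile most like Wnt4 was that of Gsta4 (r = 0.961), followed by Ly6a (0.946) and Ly6c1 (0.94). Wnt5b was most like Cyp2d10 (0.987), Ttpa (0.98) and Slc5a8 (0.979), Wnt7b most like Tnfrsf23 (0.986), Ankrd1 (0.985) and Pla1a (0.983), and Wnt10a most like Krt6b (0.953), Ppp1r14b (0.95) and Mgam (0.949). The most opposite profiles were those of Pdgfa for Wnt4 (-0.944), Zfp180 for Wnt5b (-0.982), Wnk2 for Wnt7b (-0.981) and Tmem35b for Wnt10a (-0.962).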

How the data were processed

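Each of 24 samples was hybridized to 1 Agilent 1-colour array, and the authors deposited the scanner tables, made with Agilent Feature Extraction per the file headers, whose processed signal is an intensity with local background and spatial trend removed, together with a log2 value table of the same arrays. Control and outlier spots were left out, spots of a probe averaged, and the log2 processed signals quantile normalized over the 24 arrays. Probes were named through their RefSeq accession, and the brightest probe stood for a gene. limma 3.58.1 in R 4.3.3 (lmFit, eBayes) was fitted over all probes, 1 fit per experiment, with Benjamini-Hochberg adjustment and a threshold of 0.05. The code was tested on simulated data. Members, gene lists and markers were chosen with earlier results of these data known. The genes named are the members, the called genes of each list where 5 or fewer or among the largest changes, and the 3 most alike over the 24 arrays. Alternatives were another scaling, normexp (offset 50), the deposited log2 table, a filter on dim probes and the methods' t-test. Others were a slide term in 1 fit of all 24 arrays, a replicate block and leaving out each array. Sequences came from RefSeq (GRCm38.p6) through Python 3.11.15.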

Additional observations from a re-analysis of the deposited data

Results flagged for a closer look

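The effect of siPINC on Axin2 differed between +LH and -LH cells by 1.53 on the log2 scale in limma's interaction test (SE 0.248, adjusted p = 0.0322), which is what marked it for a closer look. The signals behind it never rose well above background in these 4 groups: the Axin2 probe was 3.49 and 3.81 in siNEG -LH, between 2 and 2.13 in siPINC -LH, between 1.96 and 2 in siNEG +LH and between 1.88 and 1.97 in siPINC +LH. The other Axin2 probe gave 0.44 (adjusted p = 0.951). The cause was not tested.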

How the results depend on the processing

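Of the called differences, 24 of 24 under the filter on dim probes, 24 of 26 under normexp and under the slide term, 20 of 26 under 75th percentile scaling, 20 of 26 with the series matrix values and 14 of 25 under the methods' t-test kept their direction and their call. The number of members called changed as follows. For siPINC1.0/1.6 against siNEG in -LH cells it was 3, and 1 under 75th percentile scaling (Wnt7b), 2 with the series matrix values (Wnt4, Wnt7b), 0 under the t-test, and 4 under normexp, the filter and the slide term, each time with Wnt5b lower. For siPINC in -LH cells it was 0, and 2 under normexp (Wnt4, Wnt7b) and 3 with the slide term (Wnt4, Wnt7b, Wnt10a). The slide-term fit pooled all 24 arrays. All -LH arrays were on slide 1, so the term left the -LH differences as they were and only the estimate of the spread changed. For siPINC1.0/1.6 in +LH cells it was 4, and 1 under the t-test (Wnt10a). For siPINC in +LH cells it was 2, and 0 under 75th percentile scaling and with the series matrix values, 1 under the t-test (Wnt10a) and 4 with the slide term (Wnt4, Wnt5b, Wnt7b, Wnt10a). For siPINC1.0/1.6 against siPINC it was 2, and 1 under 75th percentile scaling and with the series matrix values (Wnt5b both times), 0 under the t-test, and 3 under normexp, the filter and the slide term (Wnt10a added). For LeGO-1.0/1.6 against LeGO-GFP it was 5, and 4 under the t-test (without Wnt5a), and against LeGO-DCR it was 4, and 5 under normexp, the series matrix values, the filter, the slide term and the replicate block (Wnt5a added). For hormones it was 5, and 4 under normexp, the series matrix values, the filter and the slide term (without Axin2), and under the t-test Wnt6 replaced Wnt4. The interaction of siPINC1.0/1.6 with hormones went from 0 to 1 under the filter (Wnt7b), and that of siPINC from 1 to 0 under 75th percentile scaling, normexp, the series matrix values, the filter and the slide term. Axin2 changed sign in the hormone comparison on its other probe (0.01) and in the siPINC interaction with the series matrix values (-0.13). The cause was not tested.

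Deviations of same-numbered arrays from their group means correlated between -0.458 and 0.519. With so few arrays per group this cannot settle whether replicate numbers pair the samples, and the main fits used no pairing. With the replicate block the counts became 0 for siPINC1.0/1.6 in -LH cells, 0 for siPINC in +LH cells, 0 for the siPINC interaction and 0 for siPINC1.0/1.6 against siPINC.

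With each array left out in turn, the counts ran from 0 to 0 for both -LH knockdowns, from 3 to 4 for siPINC1.0/1.6 and from 0 to 2 for siPINC in +LH cells, from 4 to 5 for LeGO-1.0/1.6 against either control, from 0 to 0 for LeGO-DCR, from 5 to 5 for hormones, from 0 to 1 for each interaction and from 1 to 2 for siPINC1.0/1.6 against siPINC. Leaving out 1 of 2 -LH arrays assumes that the remaining one varies like the other groups. Wnt6, Wnt10b, Axin2 and Tnfsf11 were mostly not above background, so changes in them were not measurable here. The comparison of the 2 siRNA pairs was chosen after seeing the data.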
